A study of Caenorhabditis elegans with 2 samples.

Results

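Tagged DPL-1 was mapped by chromatin immunoprecipitation and sequencing (ChIP-seq). Its peaks were read at a list, not complete, of 10 Caenorhabditis elegans genes that recognize replication origins or help fire them. The genes were taken by symbol from the WBcel235 annotation, which uses ce11 coordinates, and all 10 listed symbols matched among 19973 protein-coding genes. They are orc-1, orc-2, orc-3, orc-4 and orc-5 of the origin recognition complex, the kinase gene cdc-7, evl-18, which encodes the worm CDC45, and psf-1, psf-2 and psf-3 of the GINS complex. The promoter window of a gene ran from 1000 bp before to 200 bp after each annotated 5' end, and a gene with a peak summit in it was counted as bound. The material was whole L1 larvae, the first larval stage, as a pool of males and females with no age given. All animals came from strain OP105, which carries the mutation unc119(ed3) and the integrated transgene wgIs105, made of dpl-1 joined to TY1, EGFP and FLAG tags and a functional unc119. The series has 1 group with 2 biological replicates and hence no contrast between conditions. The promoter that drives the transgene, whether the endogenous dpl-1 is intact, and the share of each tissue in the material were not given in the sources used here.

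Replication begins when the origin recognition complex binds DNA and, with CDC-6 and CDT-1, loads the MCM helicase in an inactive form. The CDC7 kinase and cyclin-dependent kinase then switch it on, and CDC45 and GINS join MCM to make the active helicase. DPL-1 is the worm DP protein. It pairs with an E2F protein, and the pair also sits in the DREAM complex, which holds cell-cycle genes down in cells that do not divide. E2F proteins bind a GC-rich element, and the DREAM subunit LIN-54 binds the cell-cycle genes homology region (CHR).

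The strongest peak was at orc-5, and the summits of these genes differ in the elements they carry. The sequences below run 5' to 3' on the strand of the gene. They reach up to 60 bp to either side of the summit in the list that the authors cut by reproducibility. The orc-4 window stops at an annotated UTR. Capitals mark matches, on either strand, to the E2F motif (TTCCCGC or TTCGCGC or TTGCCGC or TTGGCGC) and to the CHR motif (TTTGAA or TTCGAA). They are shown because they hold both elements (orc-1, evl-18), one (orc-5, orc-3) or neither (psf-1, orc-4) in the stretch printed, and they were read from the RefSeq genome of WBcel235.
orc-1 (chrIII:10642944-10643064, + strand): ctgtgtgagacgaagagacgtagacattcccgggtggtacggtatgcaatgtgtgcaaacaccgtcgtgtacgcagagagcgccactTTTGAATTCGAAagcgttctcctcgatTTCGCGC
evl-18 (chrIII:3735122-3735242, - strand): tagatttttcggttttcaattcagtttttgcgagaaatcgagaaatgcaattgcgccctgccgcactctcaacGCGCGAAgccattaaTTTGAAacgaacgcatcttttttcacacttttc
orc-5 (chrIV:10734649-10734769, - strand): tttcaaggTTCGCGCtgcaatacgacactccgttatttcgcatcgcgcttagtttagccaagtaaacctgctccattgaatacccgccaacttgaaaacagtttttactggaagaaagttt
orc-3 (chrIII:1207989-1208109, + strand): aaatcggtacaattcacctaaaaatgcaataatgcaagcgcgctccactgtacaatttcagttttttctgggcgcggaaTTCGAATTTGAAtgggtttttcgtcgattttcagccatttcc
psf-1 (chrII:9968461-9968581, + strand): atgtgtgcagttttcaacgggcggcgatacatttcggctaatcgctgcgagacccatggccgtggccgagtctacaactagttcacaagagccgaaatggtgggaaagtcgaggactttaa
orc-4 (chrIII:10646260-10646322, + strand): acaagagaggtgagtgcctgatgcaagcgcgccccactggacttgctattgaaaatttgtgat

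Tagged DPL-1 was found at the promoters of nearly all of these genes. Of the 10, 9 had a summit in the list that the authors cut by irreproducible discovery rate (IDR), which measures how well the ranks of peaks repeat between replicates, and 14.3% of all protein-coding genes had one. The exception was orc-2. When each replicate was read alone, by as many of its strongest peaks as the IDR list holds, the count was 9 in replicate 1, against 14.4% of all genes, and 9 in replicate 2, against 13.8%. With the IDR peaks above the median signal, 8 of the 10 were bound against 8.88% of all genes, and the gene lost was orc-4. The relaxed lists reach far into weak peaks: the pooled one covered 41.2% of all genes, that of replicate 1 46.6% and that of replicate 2 46.3%, and they held a summit at 10, 9 and 10 of these genes.

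The signal of a peak is the strength given by the authors' caller. Its scale is not stated, and sequencing depth is unknown from these files. Signals were therefore compared within a list, except for the ratio between replicates given at psf-2, which is set against that of other peaks. The IDR list held 2797 peaks with signals from 30.3 to 2461, and its peaks carry the values of the pooled data of both replicates. The median signal of the 9 bound genes was 207, against 95.1 over all bound protein-coding genes, where each gene was given by its strongest promoter peak. They spread widely, with the highest 17.4 times the lowest. Neither gene of the transgene, dpl-1 or unc-119, had an IDR summit in its window.

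**Figure D1:**
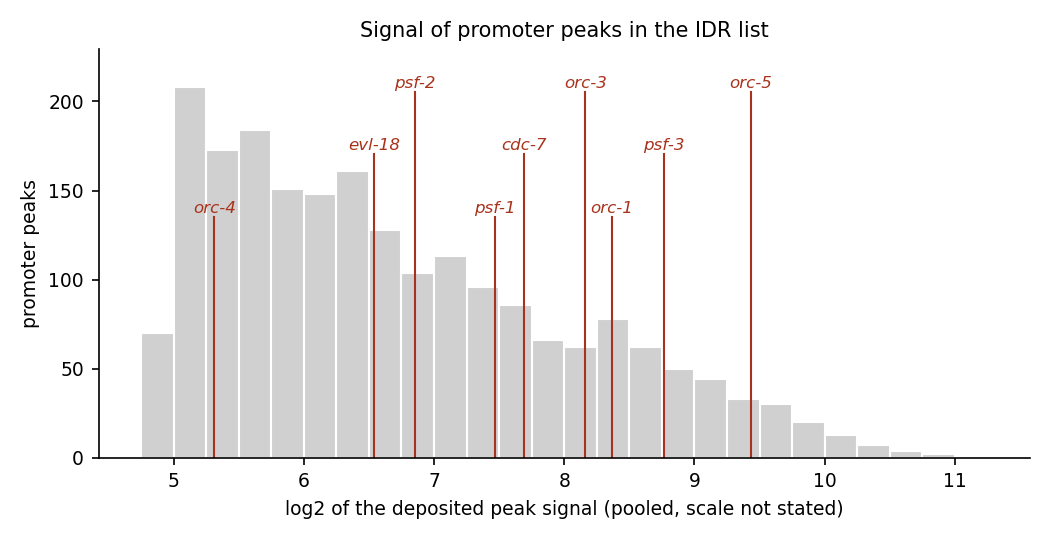
Histogram of the log2 signal of the 2095 IDR peaks in promoter windows (x axis, scale of the caller not stated; y axis, number of peaks), with red lines at the strongest promoter peak of each bound gene. The line of orc-5 stands farthest to the right at a signal of 691 and that of orc-4 farthest to the left at 39.8.

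Among the subunits of the origin recognition complex, orc-5 (WBGene00013857, IV:10732832-10734588, - strand) carried the strongest peak of all 10 genes. ORC5 is one of the subunits of the complex that bind ATP. Its summit (IV:10734709) lay 121 bp upstream of the 5' end, with a signal of 691 and rank 91 in the IDR list. Replicate 1 gave a signal of 419 and rank 100, and replicate 2 a signal of 271 and rank 82, in the scale of each list, so the rank was 91.0 ± 12.7 (SD, n = 2). The summits of the replicates fell within 4 bp of each other. The same peak lies 507 bp upstream of a 5' end of cyb-1, a cyclin B gene read in the opposite direction. The window of orc-5 also held weak summits in the relaxed lists of single replicates, none of them ranked better than 6877.

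The gene orc-1 (WBGene00012650, III:10643129-10646058, + strand) encodes the subunit with the ATPase activity of the complex. Its summit (III:10643004) was intergenic, 125 bp upstream of orc-1 and 139 bp upstream of a 5' end of dhs-11, which is read in the opposite direction, and the peak stood about midway between both genes. The signal was 329 at rank 325, with 223 at rank 296 in replicate 1 and 110 at rank 363 in replicate 2 (rank 330 ± 47.4, SD, n = 2). The summits of both replicates lay within 9 bp of each other.

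A much weaker peak was found at orc-4 (WBGene00012651, III:10646170-10648861, + strand), another subunit that binds ATP. This gene starts 111 bp after the end of orc-1 on the same strand, and whether both genes form an operon was not tested. The orc-4 summit (III:10646262) lay inside the gene, in coding sequence, 34 bp downstream of the nearest of its annotated 5' ends and 3258 bp from the orc-1 summit. Its signal was 39.8 at rank 2241, and only 19.9% of IDR peaks were weaker. Replicate 1 gave 26.9 at rank 2079 and replicate 2 gave 12.9 at rank 2760, just inside the limit of 2797 peaks used for single replicates. The orc-1 peak had 8.41 ± 0.162 (SD, n = 2) times the signal of the orc-4 peak when both were read within a replicate.

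The peak of orc-3 (WBGene00022488, III:1208133-1213650, + strand), another core subunit gene, lay 84 bp upstream of its 5' end (III:1208049). It had a signal of 287 at rank 388, with 189 at rank 370 in replicate 1 and 104 at rank 388 in replicate 2 (rank 379 ± 12.7, SD, n = 2). No other annotated gene had this summit in its window.

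The single gene without an IDR peak was orc-2 (WBGene00003882, II:10873931-10877683, + strand), which encodes a core subunit of the complex. In the pooled relaxed list a summit lay 90 bp upstream of it, with a signal of 14.03 at rank 7584, under the lowest IDR signal of 30.3. Replicate 2 listed a summit 13 bp upstream with a signal of 4.65 at rank 14125, and the relaxed list of replicate 1 held none in the window. The gene starts 134 bp after the end of copz-1, a coatomer subunit gene on the same strand. An IDR peak with a signal of 153 at rank 693 stood 124 bp upstream of copz-1 (II:10872755), in the window of cyn-4 too, and 1176 bp from the 5' end of orc-2, just outside the window. Thus 2 of the 10 genes lay close behind another gene on the same strand, with at most 500 bp between them, and 1 of these 2 was bound, against 10.2% of the 3618 protein-coding genes placed in this way. In both cases the gene in front carried the stronger peak.

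**Figure D2:**
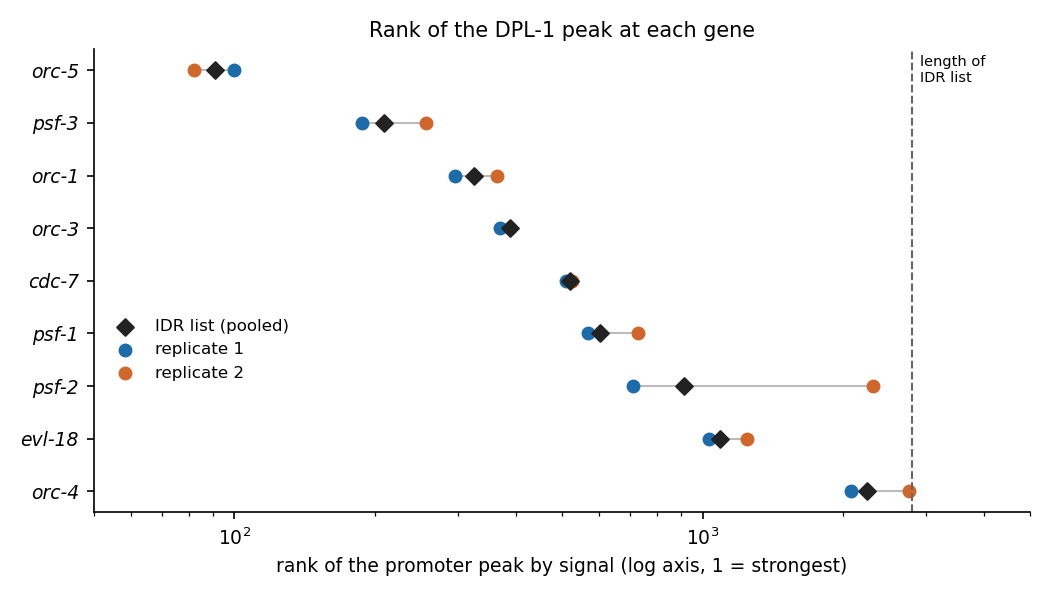
Rank by signal of the promoter peak of each bound gene (x axis, log scale, 1 is the strongest peak) in the IDR list (diamonds) and in the lists of replicate 1 (blue) and replicate 2 (orange), with a dashed line at 2797, the length of the IDR list. The replicates lie farthest apart at psf-2, where the ranks were 709 and 2309.

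All of the listed firing genes, cdc-7, evl-18, psf-1, psf-2 and psf-3, were bound. At cdc-7 (WBGene00016421, I:5872174-5874343, + strand), the kinase gene, the summit (I:5872009) lay 165 bp upstream of the 5' end with a signal of 207 at rank 520. It had a signal of 133 at rank 510 in replicate 1 and 77.5 at rank 525 in replicate 2 (rank 518 ± 10.6, SD, n = 2), and both summits fell within 6 bp. The only other gene with this summit in its window was C34G6.12, annotated as an ncRNA.

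The CDC45 gene evl-18 (WBGene00009372, III:3729640-3735039, - strand) had a peak of middling strength. Its summit (III:3735182) was 143 bp upstream of the 5' end, with a signal of 92.9 at rank 1092, stronger than 61.0% of IDR peaks. Replicate 1 gave 61.7 at rank 1030 and replicate 2 gave 32.6 at rank 1243 (rank 1137 ± 151, SD, n = 2). A second, weaker summit 779 bp upstream was listed in the pooled relaxed list with a signal of 21.6 at rank 3839 and in replicate 1 at rank 3359. Replicate 2 had one 906 bp upstream at rank 4348. None of these was in the IDR list.

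GINS is the part of the active helicase that holds CDC45 and MCM together. The ranks of psf-3 in the replicates did not overlap those of psf-1 and psf-2, whereas those of psf-1 (570 and 729) and psf-2 (709 and 2309) did. Within each replicate the order was the same, with psf-3 ahead of psf-1 and psf-1 ahead of psf-2. The strongest was psf-3 (WBGene00022043, I:534455-535344, + strand), with a summit (I:534325) 130 bp upstream of the 5' end, a signal of 436 and rank 209. Replicate 1 gave 291 at rank 187 and replicate 2 gave 140 at rank 256 (rank 222 ± 48.8, SD, n = 2), with summits 1 bp apart. This peak was in the window of no other annotated gene.

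The summit (II:9968521) of psf-1 (WBGene00011275, II:9968673-9969630, + strand) lay 152 bp upstream of its 5' end with a signal of 177 at rank 605, and had 119.2 at rank 570 in replicate 1 and 55.8 at rank 729 in replicate 2 (rank 650 ± 112, SD, n = 2). The summit fell within the annotated exons of the ncRNA genes R53.9 and R53.11. It also lay 472 bp upstream of the protein-coding gene R53.4, which is read in the opposite direction.

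At psf-2 (WBGene00009287, I:15053010-15053672, + strand) the replicates were far apart. The summit (I:15052738) lay 272 bp upstream of psf-2 and 318 bp upstream of zipt-1, a zinc transporter gene read in the opposite direction. The pooled signal was 116 at rank 914. Replicate 1 gave 95.2 at rank 709, and replicate 2 gave 15.8 at rank 2309 (rank 1509 ± 1131, SD, n = 2). The ratio of the signal in replicate 1 to that in replicate 2 was 6.03, against 1.55 to 2.14 for the other 8 bound genes and a median of 1.63 over the 2683 IDR peaks matched in both replicates. Only 0.708% of those peaks had a higher ratio. By rank, which needs no common scale, the larger was 3.26 times the smaller, and 2.91% of those peaks exceeded this. A weaker summit closer to the gene was listed in both replicates, 70 bp upstream at rank 3405 in replicate 1 and 96 bp upstream at rank 5357 in replicate 2. The psf-2 summit was the last one on its chromosome in the pooled list, 19696 bp from the end, and whether this place bears on the difference was not tested.

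Seen over all bound genes, the replicates placed these peaks in nearly the same order. The Spearman rho between the signals of both replicates was 0.983 over the 9 genes and 1 over the 8 without psf-2, where genes share the 2 libraries and are not independent replicates. All 9 IDR summits had a summit within 100 bp in each replicate's list, as had 95.9% of all IDR peaks. The summits of the replicates were 1 to 37 bp apart, with a median of 19 bp, against 17 bp over all matched IDR peaks.

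The summits stood at similar places before the genes. Measured to the nearest 5' end of the gene, they lay 50 to 300 bp upstream at 8 of the 9 genes, all but orc-4. Their median was 130 bp upstream. Over all promoter peaks, measured to the nearest 5' end, 57.9% lay in that range and the median was 179 bp upstream. The place of orc-4 depends on the transcript, of which it has 4. Its replicate 2 summit was 43 bp upstream of another annotated 5' end of the gene, and its IDR summit is upstream of that end too. The summit was intergenic at 7 of the 9 genes, the others being orc-4 and psf-1. At 4 of them, orc-1, orc-5, psf-1 and psf-2, the peak also lay in the window of another protein-coding gene, and in each case the other gene was read in the opposite direction. Over all bound genes, 57.4% had only peaks that lay in the window of another protein-coding gene too. In each of these 4 cases the replication gene had the nearest 5' end among protein-coding genes. The peaks of orc-4, evl-18 and psf-2 were 316 bp wide and those of the other 6 genes 136 to 271 bp. Over the IDR list the median width was 316 bp both above and at or below the median signal.

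**Figure D3:**
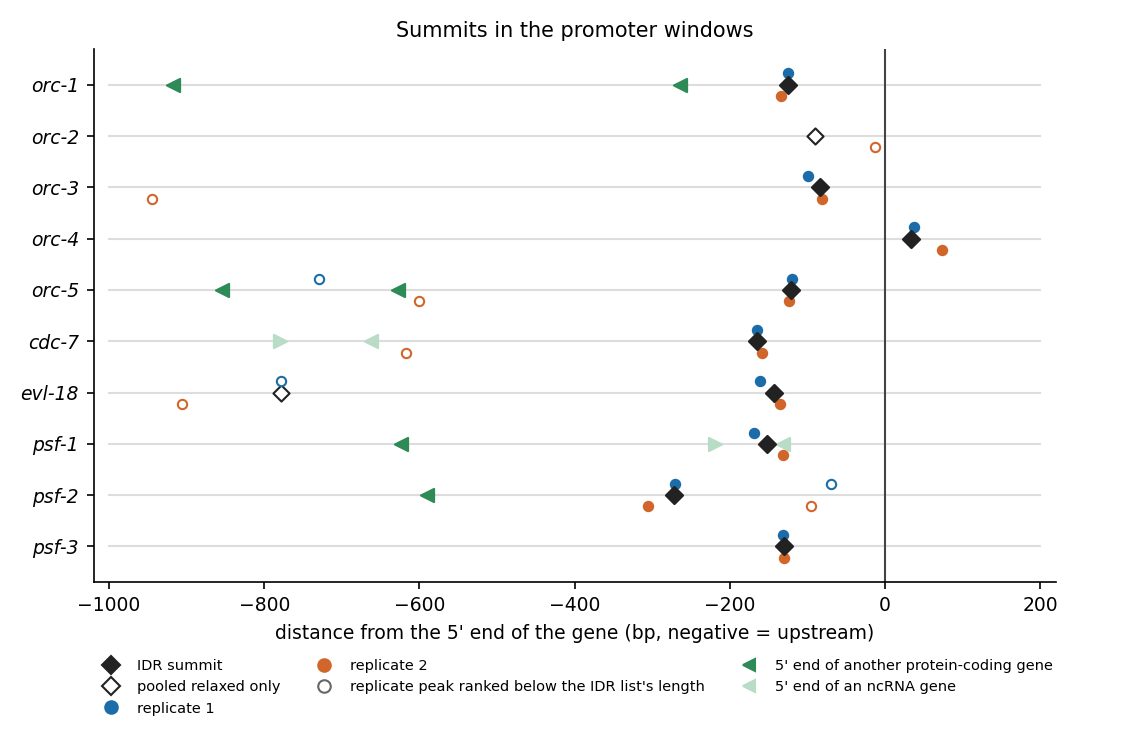
Summits within the promoter window of each gene (x axis, bp from the 5' end nearest to the IDR summit, negative upstream; 1 row per gene). Filled diamonds are IDR summits, open diamonds summits in the pooled relaxed list only, and circles the replicates, open where ranked below 2797. Green triangles are 5' ends of other genes and point the way these are read. Of the 9 filled diamonds, 8 lie 84 to 272 bp upstream, and orc-2 has open symbols only.

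The E2F motif was present near the summit of some of these genes. It lay within 100 bp at 5 of the 9 bound genes, orc-1, orc-5, cdc-7, evl-18 and psf-3, against 23.1% of all IDR peaks and 6.29% of windows of the same length upstream of protein-coding genes. Among the IDR peaks above the median signal, where 8 of the 9 lie, 29.7% had a match. The count depends on how the motif is searched. With the whole motif within 50 bp of the summit it was 3 of 9, against 17.0% of IDR peaks and 2.68% of upstream windows of that length. The orc-5 match, centred 49 bp away, reached past that limit and was not counted. With one more T in front of the motif it was 2 of 9, against 11.9% and 3.33%, and within 150 bp it was 5 of 9, against 25.5% and 9.47%. There was no match within 100 bp at orc-3, orc-4, psf-1 or psf-2. At evl-18 the motif was centred 16 bp from the summit, at cdc-7 23 bp, at psf-3 25 bp, at orc-5 49 bp and at orc-1 57 bp. The match was TTCGCGC in orc-1, orc-5 and evl-18, TTGGCGC in cdc-7 and TTCCCGC in psf-3. The genes with and without a match overlapped in signal, since orc-3 (287) was stronger than evl-18 (92.9) and cdc-7 (207).

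The CHR motif is short and common, and it lay within 100 bp of the summit at 6 of the 9 genes, against 52.1% of IDR peaks and 56.2% of the upstream windows, so its presence alone sets these genes little apart. The 6 genes were orc-1, orc-3, cdc-7, evl-18, psf-1 and psf-2, and the psf-1 site, 80.5 bp from the summit, lies outside the sequence printed. Both elements were present at orc-1, cdc-7 and evl-18, and neither at orc-4. On the side of the summit that faces the gene stood 4 of 5 E2F sites and 8 of 9 CHR sites, 4 of the latter in the joined pairs of orc-1 and orc-3. Over the 2095 promoter peaks, each read towards the nearest 5' end, 49.0% of E2F sites and 46.7% of CHR sites stood on that side. This difference was not tested. At the other licensing and firing genes with an IDR peak, most E2F and most CHR sites stood on that side too, so the lean is not particular to these 9 genes. A TTCGAA site reads the same on both strands and was counted once. The GC content within 100 bp of the summit ranged from 33.3% to 44.3% with a median of 35.3%, against a median of 40.8% over the IDR peaks and 32.8% over the upstream windows.

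**Figure D4:**
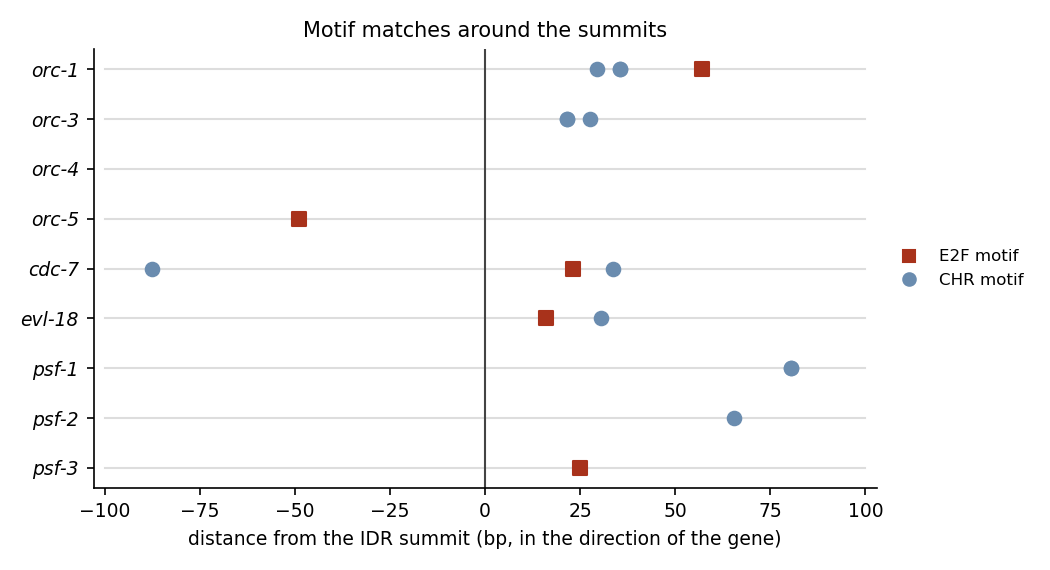
Matches to the E2F motif (red squares) and the CHR motif (blue circles) within 100 bp of the IDR summit of each bound gene (x axis, bp from the summit to the centre of the match, positive towards the gene). Of 5 E2F sites 4, and of 9 CHR sites 8, lie to the right of the summit, and orc-4 has none.

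The other genes of licensing and firing were read in the same way. Of 17 listed by symbol, 16 matched, and sld-3 was not matched. Of the 16, 15 had an IDR summit in the promoter window, against the same 14.3% of all genes, and the mean count over the replicates read alone was 14.5 ± 0.707 (SD, n = 2). The strongest peaks were at dnsn-1 (signal 591), which encodes the worm DONSON, a factor that helps GINS join the helicase, mcm-4 (439), a helicase subunit gene, and sld-2 (417), an activator of firing. All 6 genes from mcm-2 to mcm-7 were bound, with signals from 215 to 439. The median signal of the 15 was 304, against 207 for the 9 origin recognition and firing genes, and the ranges overlapped. The single gene without an IDR peak was sld-5, which encodes the remaining subunit of GINS, so 3 of the 4 GINS genes were bound. At sld-5 the pooled relaxed list held a summit with a signal of 12.2 at rank 10520, and the nearest IDR summit lay 32257 bp from a 5' end of the gene. The E2F motif lay within 100 bp of the summit at 13 of the 15 genes, against 23.1% of all IDR peaks, and the CHR motif at 14 of the 15, against 52.1%. These differences between gene lists were not tested.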

How the data were processed

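Relaxed peak lists were made by the authors from the alignments of each replicate and of both together, each with 1 control file, and the IDR list came from these 3, per the deposited file listing. Aligner, peak caller, IDR threshold and how multiply mapping reads were handled were not given in the sources used here. In those lists the deposited signal is the strength that the authors' caller gave a peak. The IDR list on ce11 held the 2797 strongest of 23883 pooled peaks, and each replicate's list 30000 peaks.

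Summits were set at the deposited start plus the deposited offset, 1-based, and joined to Ensembl release 115 genes on the 6 nuclear chromosomes. A summit in several windows counted for each gene. Where transcripts are trans-spliced, transcription can start upstream of the annotated 5' end. For a value per replicate, the 2797 strongest peaks of its own list were used. Summits within 100 bp were called matched. Motifs were searched within 100 bp of summits and in windows of the same length upstream of genes, and counted where the whole motif lay inside. No set test was made, and members and lists were chosen with earlier results of these data known. Named were all 10 genes, genes sharing their peaks, a gene at most 500 bp in front of them, and of the other licensing and firing genes the 3 strongest and those without a peak. The other genes named were chosen after their values were seen. The ce10 IDR list was matched by chromosome, width, offset and signal to 2 significant digits, and the closest signal was taken where several peaks matched. The window and motif searches were tested on simulated data. Python 3.11.15, pandas 2.3.3 and numpy 2.4.6 were used.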

Additional observations from a re-analysis of the deposited data

How the results depend on the processing

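The count of 9 bound genes stayed at 9 with a window of 500 bp upstream and with one reaching 500 bp downstream. It also stayed at 9 with protein-coding transcripts only, with each peak given only to the nearest protein-coding gene, and with either replicate alone. The psf-1 summit lay nearer to the 5' ends of the ncRNA genes R53.9 and R53.11, which the nearest-gene setting left out. Limiting the list to peaks above its median signal left 8, without orc-4, and the pooled relaxed list gave 10, orc-2 included. The median rank of their peaks was 520, and 510 to 525 with single replicates. Of the other 16 licensing and firing genes, 15 were bound, and 11 to 16 under the same alternatives. The lowest count, with the nearest protein-coding gene only, lost cdc-6, gmn-1, mcm-3 and cye-1, and mus-101 was lost without replicate 1. Among counts of genes, that of the E2F motif moved by over 1.5 times, from 5 to 3 within 50 bp of the summit and to 2 with one more T in front, and it was 5 within 150 bp. By single replicates, 5 ranks moved by more than their SD: orc-3 from 388 to 370 without replicate 2, and, without replicate 1, orc-4 from 2241 to 2760, evl-18 from 1092 to 1243, psf-1 from 605 to 729 and psf-2 from 914 to 2309. That SD comes from the same 2 replicate ranks and is small where they agree, so the rule is no measure of stability. It marks orc-3, although its replicates gave ranks of 370 and 388. Each of the 9 peaks had a match in the ce10 list, but as signal was part of the matching, their ranks there are no separate check. No paired analysis was possible because there is 1 group. With 2 replicates and no depth, weak peaks such as those of orc-4 and orc-2 are read with little precision.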

Other observations

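Arrangements of the motifs were looked at after the sequences had been read, and were not tested. An E2F and a CHR site with at most 15 bases between them were found within 100 bp of the summit at 3 of the 9 bound genes, with 4 bases between them at cdc-7, 8 at evl-18 and 15 at orc-1. Over all IDR peaks 9.22% had such a pair, and 1.24% of the windows upstream of protein-coding genes. Among the 15 other bound licensing and firing genes 12 had one, with the shortest distance, 1 base, at mcm-7. At orc-1 and orc-3 a pair of CHR sites was joined end to end, TTTGAA followed by TTCGAA at orc-1 and the reverse order at orc-3. Joined CHR sites were present at mcm-4 and mcm-5 too, in 1.18% of IDR peaks and in 0.441% of upstream windows.

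The summits of orc-3 and orc-4, which hold no E2F motif, shared a stretch of 19 bases. It is shown because it was the longest run common to both windows with at most 1 mismatch. The stretches differ by T13C, with the base of orc-3 first and positions counted from 1 at the 5' end.
orc-3 (chrIII:1208020-1208038, + strand): atgcaagcgcgctccactg
orc-4 (chrIII:10646280-10646298, + strand): atgcaagcgcgccccactg
The stretch was centred 20 bp upstream of the IDR summit at orc-3 and 27 bp downstream of it at orc-4, so on opposite sides. At orc-4 the side depends on the list. The replicates placed that summit 36 bp apart, and the summit of replicate 2 (III:10646301) lay past the stretch, with the stretch upstream of it. A match to either form on either strand, with at most 3 mismatches, was present within 100 bp of 142 IDR summits (5.08%) and in 0.651% of upstream windows. None of the other licensing and firing genes with a peak had one. The median signal of the IDR peaks with the stretch was 161, against 71.5 over the whole list, and this difference was not tested. The genes that the stretch was taken from lay on both sides of the list's median, orc-3 at 287 and orc-4 at 39.8.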
